A study of Mus musculus with 18 samples.

Results

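The 10 genes described here are the transcription factors *Stat3*, *Stat4*, *Stat5a*, *Stat5b* and *Stat6*, the cytokine feedback inhibitors *Cish*, *Socs2* and *Socs3*, and the kinases *Pim1* and *Pim2*. They were chosen by gene symbol and matched by Ensembl identifier to 10 of the 45706 genes of each expression table. STAT proteins wait in the cytoplasm, are phosphorylated by JAK kinases bound to a cytokine receptor, and then enter the nucleus to switch on target genes. Among those targets are the SOCS family (*Cish* and the *Socs* genes), whose proteins bind receptors or JAKs and dampen the same signal, and the PIM kinases, which promote survival and growth without needing an activating phosphorylation. In CD8+ T cells, IL-2, IL-7 and IL-15 act mainly through STAT5, IL-6, IL-10 and IL-27 through STAT3, IL-12 through STAT4 and IL-4 through STAT6. RNA-seq reports the transcripts of these genes and not the phosphorylation of their proteins.

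Gene expression was measured in 18 libraries of purified CD8+ T cells of OT-I mice, whose T cell receptor recognizes an ovalbumin peptide. Repeat peptide stimulated cells received 10 ng/ml of this peptide every day for 5 days, together with IL-15 and IL-7, cytokines of the STAT5 route, whereas single peptide stimulated cells met it once, for 48 h, and were then washed. Whether the single peptide cultures also held these cytokines is not stated in the labels. From day 5 to day 8 the cells were given 1 µM ibrutinib, a covalent inhibitor of the kinase BTK, or its solvent DMSO. By the methods of the study, the peptide was still present in the repeat peptide cultures over these days. The groups were repeat peptide with DMSO (4 libraries), repeat peptide with ibrutinib (5 libraries), single peptide with DMSO (5 libraries) and single peptide with ibrutinib (4 libraries). The strain of all 18 libraries is labelled wild type OT-I. The genotype label instead gives experiment names, lettered A to F here, and for B to E that name mentions a *btk* knockout, while the study mentions no *btk* deficient cells for these libraries. *Btk* itself cannot settle this, since it had at most 27 expected counts in any library. Experiments A to D each have all 4 groups, whereas E and F have 1 library apiece, the former of repeat peptide cells with ibrutinib and the latter of single peptide cells with DMSO. The model is an in vitro culture without tumour or virus, and ages and sexes of the mice are not given in the sources used here.

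Library totals lay between 23445922 and 51995372 expected counts, with a median of 27420966. The 7 CD8 T cell markers (*Cd8a*, *Cd8b1*, *Cd3d*, *Cd3e*, *Cd3g*, *Cd2* and *Lck*) summed to 2989 to 4127 TPM (the length-scaled transcript share) in every library, while *Cd4*, the B cell genes *Cd79a*, *Ms4a1* and *Pax5* and the myeloid genes *Csf1r*, *Itgam* and *Adgre1* stayed under 1 TPM in every library. The 3 NK cell markers summed to 5.47 to 28.5 TPM in repeat peptide and 1.00 to 3.06 TPM in single peptide stimulated cells, and the CD4 T cell list to 5.38 to 21.4 and 2.08 to 12.5 TPM. The 6 myeloid markers summed to at most 9.18, the 4 B cell markers to at most 7.08, the 4 dendritic cell markers to at most 4.09 and the 3 red cell markers to at most 1.84 TPM. Whether cells of another kind took part in the results below was not tested.

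Normalized counts are expected counts brought to a common effective library size, the mean over the libraries. A gene was called when the adjusted p of edgeR's quasi-likelihood test was under 0.05, its log2 fold change exceeded 0.2 in size and its normalized count averaged 50 or more. All 10 genes passed the filter on low counts that left 12255 tested genes. In this bulk RNA, a smaller share of cells expressing a gene and less of its RNA per cell cannot be told apart. Nothing in the labels says that libraries of a group came from separate animals, so the p-values measure the spread between these cultures.

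With ibrutinib, repeat peptide stimulated cells had more *Socs3* and *Pim1* and less *Stat3* than with DMSO, and these 3 genes were called. The other 7 genes were not. Of all tested genes 5.92% were called in this comparison (4.01% higher and 1.92% lower with ibrutinib), and 1694 in place of 726 genes with the experiment as a block. In single peptide stimulated cells *Socs2* and *Pim2* were lower with ibrutinib, 2 of the 10 genes, where 3.04% of all tested genes were called (0.351% higher and 2.69% lower, and 1114 in place of 373 genes with the block). With DMSO, repeat and single peptide stimulated cells differed in 5 of the 10 genes, against 47.0% of all tested genes, a share near that background. The plot of normalized counts by library shows every value behind these calls.

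**Figure D1:**
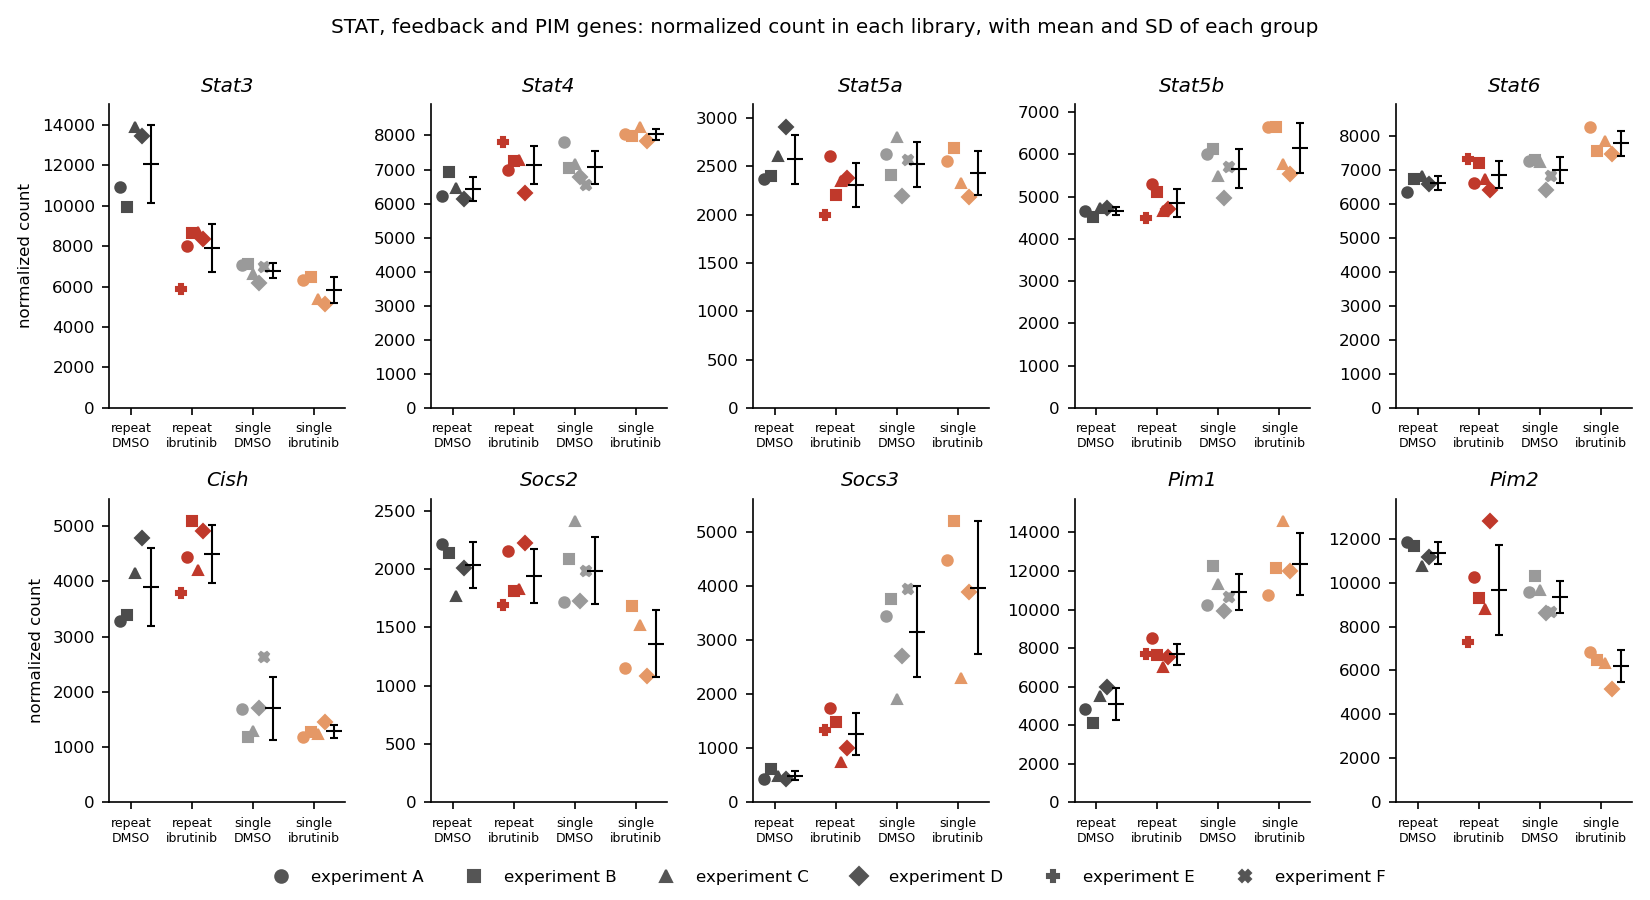
Normalized count (vertical axis, from 0) of each of the 10 genes in each of the 18 libraries, by group; marker shapes are experiments A to F and the black bars give the group mean and SD. *Socs3* and *Pim1* of repeat peptide stimulated cells lie higher and *Stat3* lower with ibrutinib than with DMSO, without overlap, and *Cish* is high in both repeat peptide groups.

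*Stat3* (ENSMUSG00000004040, chr11:100885098-100939540 of GRCm38, minus strand) encodes the factor that relays IL-6, IL-10, IL-21 and IL-27. In repeat peptide cells with DMSO it had 10937, 9948, 13925 and 13439 normalized counts in experiments A, B, C and D. With ibrutinib it had 5858 in experiment E and 8019, 8660.1, 8713 and 8354 in A, B, C and D. Every ibrutinib culture lay below every DMSO culture, and the drop was seen in all 4 experiments that held both, by 0.20 to 0.69 on the log2 scale. The fitted log2 fold change was -0.61 ± 0.123 (SE, 1.52-fold lower with ibrutinib, adjusted p = 0.00538 by edgeR). The call held with any single library left out, at adjusted p from 0.00366 to 0.0341, so it did not rest on the low culture of experiment E.

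In single peptide cells the mean of *Stat3* was lower than in either repeat peptide group. With DMSO they had 7084, 7123, 6629 and 6187 normalized counts in experiments A to D and 6949.9 in F. With ibrutinib they had 6335, 6461, 5378 and 5151 in experiments A to D. Repeat peptide cells with DMSO were 1.78-fold above single peptide cells with DMSO (log2 fold change 0.83 ± 0.123, SE, adjusted p = 2.14e-05 by edgeR), without overlap. In single peptide cells the ibrutinib cultures were lower in 4 of 4 experiments, by 0.14 to 0.30 on the log2 scale, but the fitted difference of -0.22 was not called (adjusted p = 0.479 by edgeR). Between repeat peptide cells with ibrutinib and single peptide cells with DMSO, the difference of 0.22 was not called either (adjusted p = 0.143 by edgeR). It was called with the experiment as a block (0.32, adjusted p = 0.0237) and without the repeat peptide ibrutinib culture of experiment E (0.31, adjusted p = 0.0223).

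*Stat4* (ENSMUSG00000062939, chr1:51987148-52107189, plus strand), the IL-12 responsive factor behind IFN-γ production, was among the steadiest of these genes. It had 6433 ± 360.6 normalized counts in repeat peptide cells with DMSO (SD, n = 4) and 7127 ± 551.1 with ibrutinib (SD, n = 5). In single peptide cells it had 7062 ± 484.7 with DMSO (SD, n = 5) and 8031 ± 173.0 with ibrutinib (SD, n = 4). It was higher with ibrutinib in 4 of 4 experiments in both kinds of culture, by 0.04 to 0.17 and by 0.04 to 0.21 on the log2 scale. Neither difference was called (0.15, adjusted p = 0.277, and 0.19, adjusted p = 0.272, by edgeR).

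*Stat6* (ENSMUSG00000002147, chr10:127642986-127660957, plus strand), which answers IL-4, had the lowest and highest group means in the same groups as *Stat4*: 6631 ± 205.0 (SD, n = 4) and 6874 ± 388.7 (SD, n = 5) in repeat peptide cells with DMSO and ibrutinib, and 7009.7 ± 387.5 (SD, n = 5) and 7795 ± 371.5 (SD, n = 4) in single peptide cells. Its ibrutinib cultures did not overlap the DMSO cultures in single peptide cells, but the difference of 0.15 was not called (adjusted p = 0.341 by edgeR). With ibrutinib in both cultures, *Stat4* and *Stat6* were lower in repeat than in single peptide cells in 4 of 4 experiments. These differences of -0.17 and -0.18 missed the thresholds, with adjusted p of 0.0788 and 0.0449 by edgeR and sizes under 0.2. With the experiment as a block both were called, at -0.21 (adjusted p = 0.014) and -0.21 (adjusted p = 0.0139). They were also called without the repeat peptide ibrutinib culture of experiment E, at -0.21 for both.

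*Stat5b* and *Stat5a* encode the factors that IL-2, IL-7 and IL-15 activate. *Stat5b* (ENSMUSG00000020919, chr11:100780731-100850724, minus strand) had 4657, 4528, 4734 and 4722 normalized counts in experiments A to D in repeat peptide cells with DMSO. Single peptide cells with DMSO had 6009.9, 6118, 5497, 4958 and 5704 in experiments A, B, C, D and F, all above the repeat peptide cultures. The log2 fold change of repeat over single peptide was -0.28 ± 0.0839 (SE, adjusted p = 0.00895 by edgeR). With ibrutinib it was called in neither culture (0.06, adjusted p = 0.738, and 0.12, adjusted p = 0.599, by edgeR), and repeat peptide cells with ibrutinib kept 0.34 less than single peptide cells with ibrutinib on the log2 scale (adjusted p = 0.00284).

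*Stat5a* (ENSMUSG00000004043, chr11:100859351-100885169, plus strand) was called in no comparison. Its group means were 2572 ± 250.6 (SD, n = 4) and 2308 ± 225.4 (SD, n = 5) in repeat peptide cells with DMSO and ibrutinib, and 2522 ± 233.5 (SD, n = 5) and 2437 ± 227.4 (SD, n = 4) in single peptide cells. The 95% confidence interval of its ibrutinib effect was -0.35 to 0.04 in repeat and -0.24 to 0.15 in single peptide cells, on the log2 scale. *Stat5a* and *Stat5b* are near-identical paralogs 8626 bases apart on chromosome 11. Both had fractional expected counts in all 18 libraries, as *Stat4* had in 16 and *Socs2* in 4. Whether reads were shared out between the paralogs was not tested. The 3' end of *Stat5a* also overlaps that of *Stat3* by 72 bases on the opposite strand. The libraries were strand-specific, but the strand setting of the counting is not given in the sources used here.

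Per transcript length, *Stat5a* stayed below *Stat5b* in all 18 libraries. The geometric mean of the ratio of their TPM values was 0.782 in repeat peptide cells with DMSO, 0.688 with ibrutinib, 0.612 in single peptide cells with DMSO and 0.527 with ibrutinib. None of the 3 differences passed an adjusted p of 0.05 in the two-sided exact permutation test over 126 splits (adjusted p = 0.0952, 0.0714 and 0.0952 for ibrutinib in repeat peptide, repeat against single peptide, and ibrutinib in single peptide cells, over 6 tests). Without division by length, the first 2 passed (adjusted p = 0.0238 and 0.0381).

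*Cish* (ENSMUSG00000032578, chr9:107296026-107302784, plus strand) encodes CIS, a SOCS family inhibitor of STAT5 and T cell receptor signalling. Of the 3 feedback genes, only *Cish* was called as higher in repeat than in single peptide cells with DMSO. Repeat peptide cells with DMSO had 3285, 3385, 4144 and 4791 normalized counts in experiments A to D. Single peptide cells with DMSO had 1684, 1189.9, 1297, 1705 and 2631 in experiments A, B, C, D and F. The lowest repeat peptide culture lay above the highest single peptide culture, that of experiment F, and the log2 fold change was 1.20 ± 0.180 (SE, 2.29-fold, adjusted p = 2.35e-05 by edgeR).

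In repeat peptide cells with ibrutinib *Cish* was not lower in any experiment. It had 3792 in experiment E and 4441, 5092, 4212 and 4908 in experiments A to D, higher than the matched DMSO culture in 4 of 4 experiments but by as little as 0.02 on the log2 scale. The fitted change of 0.20 (95% confidence interval -0.15 to 0.55) was not called (adjusted p = 0.549 by edgeR). Single peptide cells with ibrutinib had 1176, 1280.4, 1228 and 1446 in experiments A to D, with a fitted change of -0.41 that was not called (adjusted p = 0.318 by edgeR). Repeat peptide cells with ibrutinib thus had 2.64-fold more *Cish* than single peptide cells with DMSO (adjusted p = 8.08e-06) and 3.50-fold more than single peptide cells with ibrutinib (adjusted p = 7.21e-07 by edgeR).

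*Socs3* (ENSMUSG00000053113, chr11:117966079-117970047, minus strand), whose protein blocks JAKs at receptors of the gp130 family, ran the other way. Repeat peptide cells with DMSO had 435, 619, 486.7 and 438.7 normalized counts in experiments A to D. With ibrutinib they had 1331 in experiment E and 1747, 1475, 744.1 and 1012 in experiments A to D. All ibrutinib cultures were above all DMSO cultures, with rises of 0.61 to 2.01 on the log2 scale within experiments, the least in C and the most in A. The log2 fold change was 1.35 ± 0.263 (SE, 2.55-fold, adjusted p = 0.0043 by edgeR).

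Single peptide cells had far more *Socs3*. With DMSO they had 3448, 3764, 1917, 2699 and 3949 normalized counts in experiments A, B, C, D and F, and with ibrutinib 4483, 5198, 2304 and 3877 in A to D. Repeat peptide cells with DMSO were 6.37-fold lower than single peptide cells with DMSO (log2 fold change -2.67 ± 0.276, SE, adjusted p = 3.71e-07 by edgeR), and repeat peptide cells with ibrutinib were still 2.50-fold lower (adjusted p = 0.000374). In single peptide cells the ibrutinib culture was above its DMSO culture in 4 of 4 experiments, by 0.27 to 0.52 on the log2 scale, yet the groups overlapped and the difference of 0.33 was not called (adjusted p = 0.649 by edgeR).

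*Socs2* (ENSMUSG00000020027, chr10:95385362-95417180, minus strand), a feedback inhibitor known best from growth hormone signalling and also a STAT5 target, changed with ibrutinib in single peptide cells. These had 1719, 2091, 2413, 1723 and 1987 normalized counts with DMSO in experiments A, B, C, D and F. With ibrutinib they had 1153, 1682, 1518 and 1086 in A to D, below every DMSO culture. The log2 fold change was -0.55 ± 0.139 (SE, adjusted p = 0.0366 by edgeR), close to the threshold. It was not called without single peptide DMSO cultures B, C or F or ibrutinib cultures A or D (adjusted p up to 0.158), nor in a fit of those 2 groups alone (adjusted p = 0.103). In repeat peptide cells *Socs2* had 2034 ± 196.0 with DMSO (SD, n = 4) and 1943 ± 233.1 with ibrutinib (SD, n = 5), a difference of -0.07 with a 95% confidence interval of -0.33 to 0.20.

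The PIM kinases moved apart. *Pim1* (ENSMUSG00000024014, chr17:29490753-29496112, plus strand) had 4835, 4094, 5517 and 5980.1 normalized counts in repeat peptide cells with DMSO in experiments A to D. With ibrutinib it had 7706 in experiment E and 8520.3, 7629, 7020.3 and 7554 in A to D, above all DMSO cultures. The rises within experiments fell into a larger pair, 0.82 and 0.90 in A and B, and a smaller pair, 0.35 and 0.34 in C and D, on the log2 scale. The log2 fold change was 0.59 ± 0.113 (SE, 1.51-fold, adjusted p = 0.00392 by edgeR).

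In single peptide cells *Pim1* was higher again. It had 10248, 12271, 11344, 9944 and 10647 normalized counts with DMSO in experiments A, B, C, D and F, and 10739, 12179, 14594 and 11986 with ibrutinib in A to D. Repeat peptide cells were 2.13-fold below single peptide cells with DMSO (adjusted p = 4.6e-07 by edgeR) and, with ibrutinib in the repeat peptide cells only, 1.42-fold below (adjusted p = 0.00123). In single peptide cells the difference with ibrutinib of 0.18 was not called (adjusted p = 0.529 by edgeR).

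*Pim2* (ENSMUSG00000031155, chrX:7878262-7883432, plus strand) had 11832, 11649, 10760.1 and 11153 normalized counts in repeat peptide cells with DMSO in experiments A to D. With ibrutinib its cultures scattered, with 7281 in experiment E and 10234, 9295, 8778 and 12804 in A to D, so that D rose while A, B and C fell. The fitted difference of -0.23 was not called (adjusted p = 0.303 by edgeR). Single peptide cells had 9569, 10296, 9658, 8617 and 8647 with DMSO in experiments A, B, C, D and F. With ibrutinib they had 6837, 6488, 6324 and 5172 in A to D, below all DMSO cultures, a log2 fold change of -0.59 ± 0.128 (SE, 1.51-fold lower, adjusted p = 0.0161 by edgeR). It was lost without ibrutinib culture D (adjusted p = 0.0701). With DMSO, repeat peptide cells did not overlap single peptide cells, but the difference of 0.28 was not called (adjusted p = 0.071 by edgeR), other than in a fit of those groups alone (adjusted p = 0.0227).

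**Figure D2:**
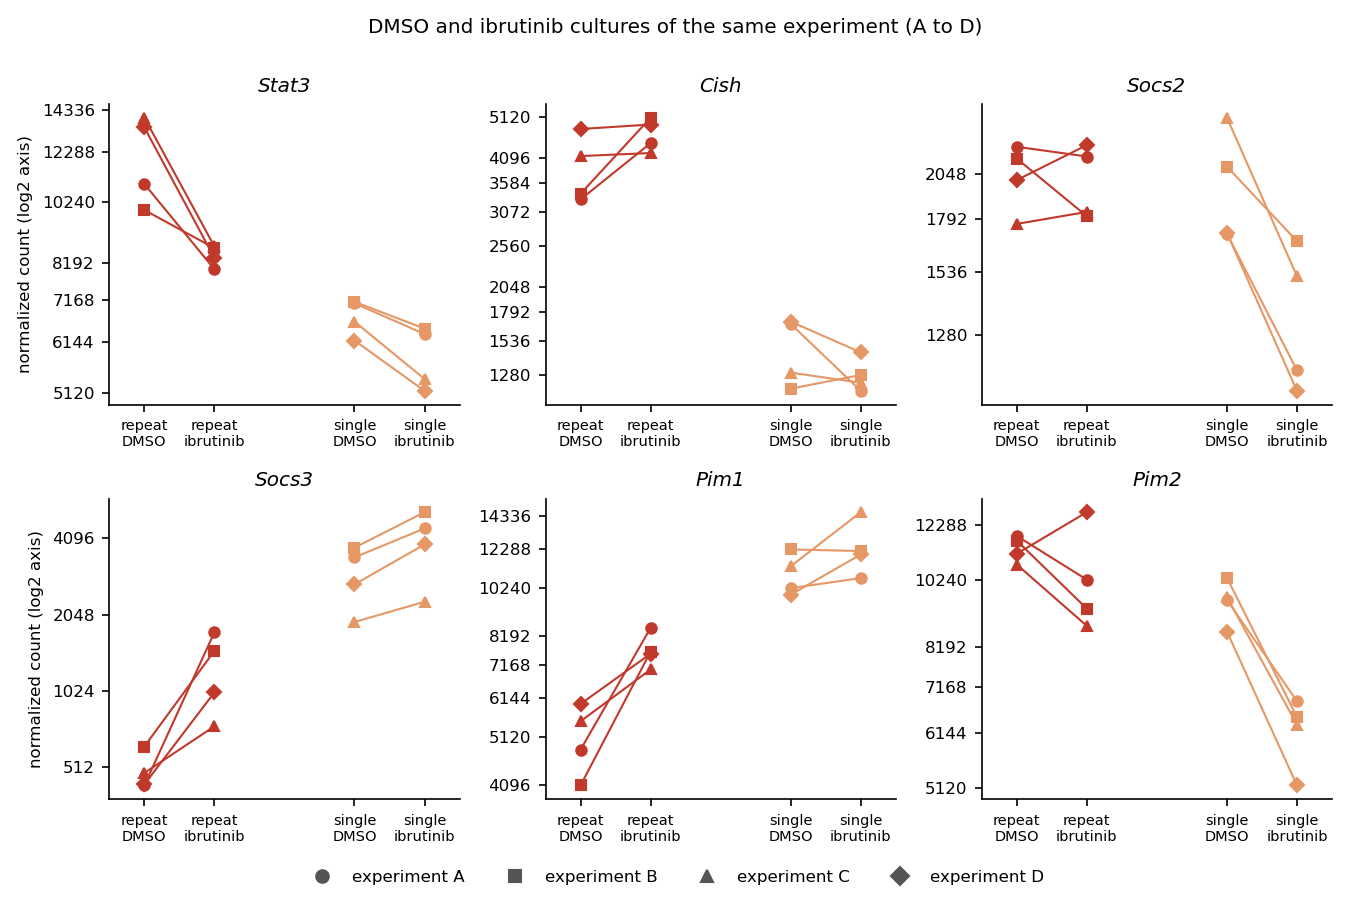
Normalized count (vertical log2 axis) of 6 genes in DMSO and ibrutinib cultures of experiments A to D, each experiment joined by a line, repeat peptide on the left and single peptide on the right of each panel. *Socs3* and *Pim1* rose and *Stat3* fell in each repeat peptide pair, and *Socs2* and *Pim2* fell in each single peptide pair.

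Levels of *Pim1* and *Pim2* can be compared with each other per transcript length, within a library. The ratio of *Pim1* to *Pim2* TPM was 0.301, 0.254, 0.373 and 0.386 in repeat peptide cells with DMSO in experiments A to D. With ibrutinib it was 0.765 in experiment E and 0.606, 0.587, 0.581 and 0.430 in A to D. In single peptide cells it was 0.771, 0.841, 0.857, 0.827 and 0.876 with DMSO in experiments A, B, C, D and F, and 1.13, 1.31, 1.67 and 1.68 with ibrutinib in A to D. *Pim2* was thus the more abundant kinase transcript in 14 libraries and *Pim1* in the 4 single peptide ibrutinib libraries. The ratio rose with ibrutinib in both cultures, by 0.85 and 0.78 on the log2 scale, and was 1.36 lower on that scale in repeat than in single peptide cells with DMSO. Each of these differences had no overlap between groups (p = 0.0159 and adjusted p = 0.0317 over 6 tests, by the same exact permutation test), the smallest two-sided p this test can give with 4 libraries against 5.

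**Figure D3:**
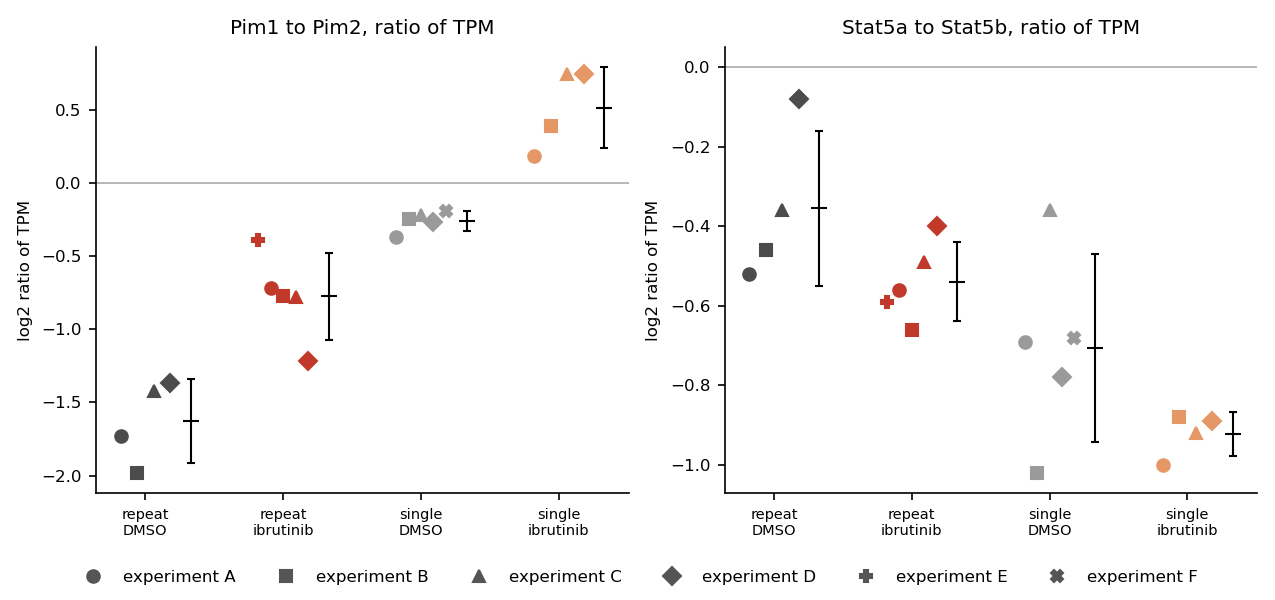
Log2 ratio of TPM of *Pim1* to *Pim2* and of *Stat5a* to *Stat5b* in each library, by group; marker shapes are experiments, black bars the mean and SD, and the grey line equal TPM. The *Pim1* to *Pim2* ratio climbs from 0.324 in repeat peptide cells with DMSO to 1.43 in single peptide cells with ibrutinib, and *Stat5a* stays below *Stat5b* throughout.

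The differences between the ibrutinib effects in repeat and single peptide cells were tested as an interaction. None of the 10 genes was called by edgeR, where 1.26% of all tested genes were (1.04% with a more positive and 0.212% with a more negative effect in repeat peptide cells, and 679 in place of 154 genes with the block), and DESeq2 also called 0. At an unadjusted p under 0.05 there were 5: *Socs3* (1.02), *Cish* (0.61), *Socs2* (0.48), *Pim1* (0.41) and *Stat3* (-0.39), on the log2 scale, where 1397 of the 12255 tested genes passed that limit. *Socs3* had the lowest adjusted p, 0.224, and was called with the experiment as a block (0.83, adjusted p = 0.0369). The data therefore do not show that *Stat3*, *Pim1*, *Socs2* or *Pim2* answered ibrutinib differently in the 2 cultures, although each was called in only 1 of them.

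**Figure D4:**
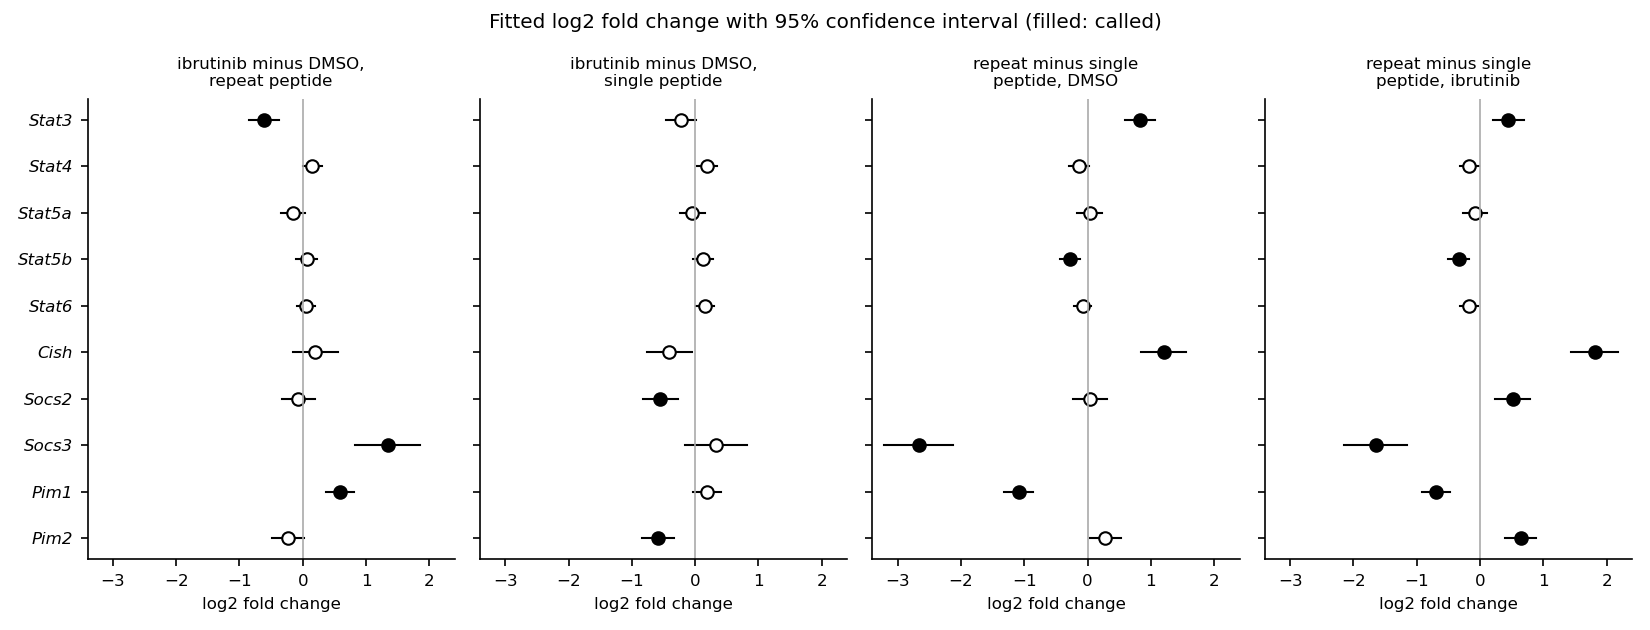
Fitted log2 fold change (horizontal axis) of the 10 genes with its 95% confidence interval in 4 comparisons; filled points were called. *Stat3*, *Socs3* and *Pim1* are filled for ibrutinib in repeat peptide cells, *Socs2* and *Pim2* for ibrutinib in single peptide cells.

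With ibrutinib in both cultures, 7 of the 10 genes differed between repeat and single peptide cells, against 38.4% of all tested genes (18.7% higher and 19.6% lower in repeat peptide cells). *Cish*, *Pim2*, *Socs2* and *Stat3* were higher by 1.81, 0.64, 0.52 and 0.44 on the log2 scale, and *Socs3*, *Pim1* and *Stat5b* lower. Between repeat peptide cells with ibrutinib and single peptide cells with DMSO, 4 of the 10 genes differed, against 32.9% of all tested genes (16.7% higher and 16.2% lower). These were *Cish* (1.40), *Socs3* (-1.32), *Pim1* (-0.50) and *Stat5b* (-0.22) on the log2 scale. *Stat5b* (adjusted p = 0.0336 by edgeR) was not called with the experiment as a block, where its difference was -0.19, or without repeat peptide ibrutinib cultures C, D or E or single peptide DMSO cultures A, B or F (adjusted p up to 0.125). Its call was also lost without the low-count filter (adjusted p = 0.0955) and in a fit of the compared groups alone (adjusted p = 0.0841, both by edgeR). With DMSO in both cultures, the 5 called genes were 2 higher (*Cish* and *Stat3*) and 3 lower (*Socs3*, *Pim1* and *Stat5b*) in repeat peptide cells, beside 22.8% and 24.2% of all tested genes. The median absolute log2 fold change of the 10 genes was 0.28 there, against 0.48 over all tested genes, and 0.18 against 0.20 for ibrutinib in repeat peptide cells. It was 0.20 against 0.15 for ibrutinib in single peptide cells, 0.48 against 0.38 between the cultures with ibrutinib, and 0.17 against 0.33 for repeat peptide with ibrutinib against single peptide with DMSO.

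On the TPM scale, which allows levels of different genes to be set side by side, *Pim2* led in repeat peptide cells with DMSO at 281 ± 25.3 TPM (SD, n = 4). *Stat3* (126 ± 21.9) and *Stat4* (115 ± 6.01) followed within their spread, then *Pim1* (92.0 ± 16.2) and *Stat6* (84.3 ± 6.18), again within it. *Cish* (59.9 ± 11.2) and *Socs2* (52.6 ± 6.54) also lay within their spread, above *Stat5b* (42.1 ± 3.19) and *Stat5a* (33.1 ± 4.71), whose ranges overlapped, and *Socs3* was the lowest (9.52 ± 1.03). In single peptide cells with DMSO the order was different. *Pim2* (210.1 ± 35.6 TPM, SD, n = 5) and *Pim1* (175 ± 27.6) overlapped at the top, *Socs3* stood at 55.5 ± 19.4, and *Cish* had the lowest mean of the 10, with 16.1 to 37.2 TPM, overlapping *Stat5a* with 19.7 to 33.8 TPM.

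Of the summed TPM of *Stat2*, *Stat3*, *Stat4*, *Stat5a*, *Stat5b* and *Stat6*, *Stat3* held 30.2% in repeat peptide cells with DMSO and 21.9% with ibrutinib, and 19.0% and 15.2% in single peptide cells. *Stat4* held 27.8%, 32.2%, 31.3% and 34.6% in the same order, within the spread of *Stat3* in repeat peptide cells with DMSO. Among *Cish*, *Socs1*, *Socs2* and *Socs3*, *Socs3* made up 5.49% of the summed TPM in repeat peptide cells with DMSO, 11.2% with ibrutinib, 24.2% in single peptide cells with DMSO and 35.1% with ibrutinib. *Cish* made up 33.8%, 30.9%, 10.2% and 9.59%.

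**Figure D5:**
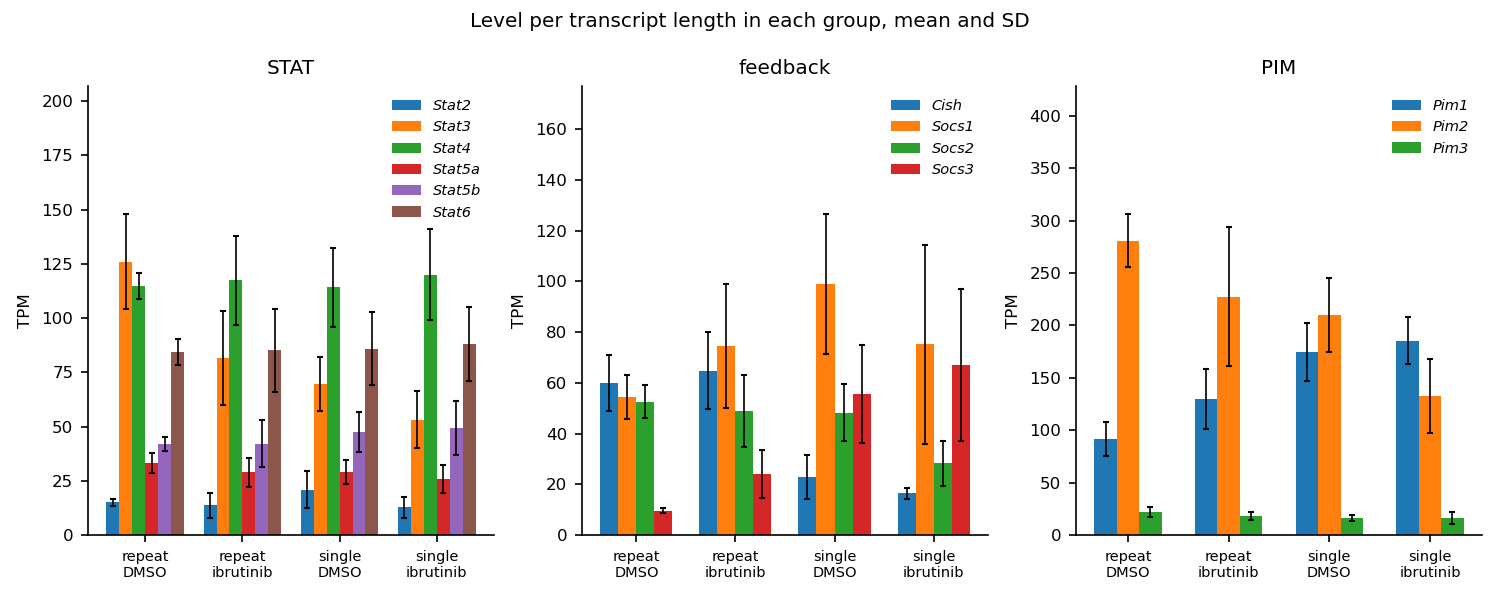
Mean TPM (vertical axis, from 0) with SD of the STAT genes, of the feedback genes and of the PIM kinases in the 4 groups. Within the feedback genes *Socs3* is the lowest bar in repeat peptide cells with DMSO, at 9.52 TPM, and *Cish* the lowest in both single peptide groups.

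The deposited tables also give each gene's mean transcript length in a library, which moves when the mix of its long and short transcripts moves. For *Stat3* it was 4276 ± 45.7 bases in repeat (SD, n = 4) and 3969 ± 324 bases in single peptide cells with DMSO (SD, n = 5), with no overlap, and for *Stat6* 3576 ± 46.9 and 3368 ± 153 bases. Their unadjusted p were 0.0159 and 0.0476, and none of the 20 tests passed an adjusted p of 0.05 (the lowest was 0.317, two-sided exact permutation test over 126 splits). *Pim1* had the same length, 2638 bases, in each library of the groups compared.

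Promoter sequence was looked up for the STAT consensus TTCNNNGAA, which reads the same on both strands, in the 300 bases around RefSeq start sites (GRCm38.p6). Windows were listed for 9 of the 10 genes, and not for *Socs2*. Of all 32851 promoters there, 8.30% held a match and 0.457% held at least 2. *Cish* held 2 and *Socs3* 1, and the windows of the other 7 genes held none. They are shown because these feedback genes moved most between the cultures, in opposite directions. In capitals are the letters of each match. The *Cish* stretch is chr9:107296654-107296683, plus strand, from 5 bases before to 25 bases after the listed start, and lies inside the gene as GENCODE draws it. The *Socs3* stretch is chr11:117969482-117969550, minus strand, from 184 to 116 bases before the listed start, also inside the GENCODE gene, which begins further upstream.
Cish: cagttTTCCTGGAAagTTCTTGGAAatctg
Socs3: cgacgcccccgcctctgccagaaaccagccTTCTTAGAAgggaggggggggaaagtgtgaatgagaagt
A match is a description of the letters, and no binding was measured in these libraries.

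The upstream parts of the pathway were examined through lists of receptors, cytokines and kinases. None of the 4 JAK genes was called with ibrutinib in either culture. In repeat peptide cells the log2 fold changes were 0.41 for *Jak1* (adjusted p = 0.0569), 0.30 for *Jak2* (adjusted p = 0.0576), -0.18 for *Jak3* (adjusted p = 0.459) and 0.07 for *Tyk2* (adjusted p = 0.762, all by edgeR). With the experiment as a block, *Jak1* (0.38, adjusted p = 0.0222) and *Jak2* (0.31, adjusted p = 0.00747) were called as higher with ibrutinib in repeat peptide cells, as they were by DESeq2, and *Jak3* was called as lower in single peptide cells by both (-0.43, adjusted p = 0.00578, with the block). *Jak3* was called there also by edgeR without single peptide DMSO culture D (adjusted p = 0.0484) and with the size factors of DESeq2 (adjusted p = 0.0404). *Jak1* and *Jak2* were also called by edgeR without repeat peptide ibrutinib culture D, and *Jak1* without ibrutinib culture C and *Jak2* without DMSO culture A. Between repeat and single peptide cells with DMSO, *Jak1* and *Jak2* were lower (-0.97 and -0.39). *Jak3*, the partner of the common gamma chain, was higher (0.35, adjusted p = 0.0334 by edgeR). That call was lost without culture C or D of either group (adjusted p up to 0.114) and without the low-count filter (adjusted p = 0.0544). Of 7 further STAT, SOCS and PIM genes none was called with ibrutinib in repeat peptide cells, with *Stat2* at -0.10 and *Socs1* at 0.52. In repeat against single peptide cells with DMSO 4 of the 7 were lower, beside 24.2% of all tested genes, among them *Socs1* (-1.02) and *Stat2* (-0.60), and none higher. The call of *Stat2* was lost without repeat peptide cultures A, C or D or single peptide cultures A, B or F (adjusted p up to 0.0977), and that of *Socs5* without repeat peptide cultures B, C or D or single peptide culture A (adjusted p up to 0.0584).

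Receptors were counted beside the shares of all tested genes, 4.01% higher and 1.92% lower with ibrutinib in repeat peptide cells, and 22.8% higher and 24.2% lower in repeat against single peptide cells with DMSO. These are shares without the block. With the experiment as a block, 1694 in place of 726 of the 12255 tested genes were called with ibrutinib in repeat peptide cells. Of 5 tested gp130 family and IL-10 receptors, which signal mainly through STAT3, 3 were higher with ibrutinib in repeat peptide cells and none was lower. They were *Il6ra* (2.56 ± 0.273, SE, adjusted p = 2.84e-05 by edgeR), *Il10ra* (0.83) and *Il27ra* (0.81), on the log2 scale, with *Il10ra* not called without DMSO culture D (adjusted p = 0.0524). All 5 were lower in repeat than in single peptide cells with DMSO, *Il6ra* by 44.8-fold. Of 8 common gamma chain receptors, 2 were higher with ibrutinib (3 with the block), *Il4ra* (0.77) and, named after its value was seen, *Il7r* (0.63, not called without DMSO culture D, adjusted p = 0.0522). The 2 that were lower were the IL-2 and IL-15 receptor chains *Il2ra* (-0.96) and *Il2rb* (-0.64). *Il7r* was also called as higher with ibrutinib in single peptide cells (0.7, adjusted p = 0.00899 by edgeR), other than without ibrutinib culture A (adjusted p = 0.0633). In repeat against single peptide cells with DMSO, *Il2ra* and *Il2rb* were the 2 that were higher (1.21 and 1.45), beside 3 that were lower. Of 4 interferon receptors, *Ifngr2* (1.15) and *Ifnar2* (0.59) were higher with ibrutinib, and all 4 were lower in repeat than in single peptide cells with DMSO. With the experiment as a block all 4 were higher with ibrutinib in repeat peptide cells, *Ifngr1* by 0.47 and *Ifnar1* by 0.32. *Ifngr2* was not called without DMSO culture C (adjusted p = 0.0504) or in a fit of the compared groups alone (adjusted p = 0.0604). *Ifnar2* was not called without DMSO cultures C or D or ibrutinib cultures A, B or E (adjusted p up to 0.112), in the fit of the groups alone (adjusted p = 0.0591) or with the length offset (adjusted p = 0.0544). Between the cultures with DMSO, *Ifnar1* was lost without repeat peptide cultures A, C or D or single peptide cultures A, B or F (adjusted p up to 0.105), and *Ifngr1* without repeat peptide culture D (adjusted p = 0.0607). Of 3 IL-12 and IL-23 receptors none was called with ibrutinib in repeat peptide cells, and 2 were lower in single peptide cells, beside 2.69% of all tested genes. Of these 2, *Il12rb1* was lost without ibrutinib culture D (adjusted p = 0.0603).

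Of 17 STAT-activating cytokines 5 were tested, and with ibrutinib *Osm* was higher (0.87) and *Ifng* lower (-1.78, adjusted p = 0.036 by edgeR) in repeat peptide cells. The call of *Ifng* was lost without DMSO cultures C or D or ibrutinib cultures A, B or C (adjusted p up to 0.155) and without the low-count filter (adjusted p = 0.0978). In single peptide cells 3 of the 5 were lower with ibrutinib and none higher, beside 2.69% of all tested genes lower. *Osm* and *Ifng* were among them, the call of *Ifng* being lost in 8 of 9 fits with a library left out. Neither *Il2* nor *Il6*, *Il7*, *Il10* or *Il21* exceeded 9 expected counts in any library. Of 10 PIAS proteins and phosphatases, 1 was called in repeat peptide cells, *Ptpn6*, which encodes the phosphatase SHP-1 and was lower with ibrutinib (-0.48). With the experiment as a block 2 more were higher there. *Ptpn6* was also the 1 called in single peptide cells, again as lower with ibrutinib (-0.68, adjusted p = 0.00185 by edgeR).

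Genes known as STAT targets were counted in the same way. Of 11 STAT5 targets, 1 was higher with ibrutinib in repeat peptide cells and 3 were lower: the granule genes *Prf1* (-1.47) and *Gzmb* (-1.12), and *Il2ra*. With the experiment as a block 3 were higher and 4 lower, where 1694 in place of 726 of all tested genes were called. *Gzmb* was not called without DMSO culture D (adjusted p = 0.0671), and it was called as lower with ibrutinib in single peptide cells as well. Their median log2 fold change was -0.03, against 0.00 over all tested genes. Of 8 tested STAT3 targets, *Rora* was higher (0.72) and *Prdm1*, the gene of BLIMP-1, 2.83-fold lower, with a median of 0.20. *Rora* was not called without DMSO culture A (adjusted p = 0.0518) or in a fit of the groups alone (adjusted p = 0.062), and 2 of the list were higher with the block. *Prdm1* was not called without DMSO culture D (adjusted p = 0.0561). Of 6 tested STAT4 targets only *Ifng* was called, and of 3 tested STAT6 targets only *Il4ra* (2 with the block). The medians were -0.08 and 0.77, the latter being the value of *Il4ra* itself. The target lists share genes with the receptor and cytokine lists above, among them *Il2ra*, *Osm*, *Ifng* and *Il4ra*, so these counts are not separate results.

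For each of the 10 genes the most alike genes were sought by Pearson correlation of log2 CPM over the 18 libraries. This is a description that mixes differences between the 4 groups with those within them. With the group means removed, the r of these pairs lay between 0.651 (*Stat6* with *Rdh10*) and 0.947 (*Stat5b* with *Slc41a1*). The values below are those over all 18 libraries. *Stat3* was most like *Iars*, an aminoacyl-tRNA synthetase (r = 0.962), and *Kdm2b* (r = 0.957). *Socs3* was most like *A430078G23Rik* (r = 0.983) and *Zbtb4* (r = 0.982), *Pim1* like *Slc30a4* (r = 0.975) and *Thra* (r = 0.962), and *Cish* like the annexin *Anxa4* (r = 0.965) and the potassium channel *Kcna4* (r = 0.964). *Stat5b* was most like *Slc41a1* (r = 0.970) and *Dhx30* (r = 0.961). *Pim2* was most like *Hnrnpa2b1* (r = 0.906) and *Cdt1* (r = 0.899), *Socs2* like *Vegfb* (r = 0.885) and *Dis3* (r = 0.879), *Stat4* like *Adck1* (r = 0.915) and *Mfng* (r = 0.906), *Stat6* like *Klc4* (r = 0.912) and *Rdh10* (r = 0.881), and *Stat5a* like *Sart3* (r = 0.858) and *Gtf3c1* (r = 0.852).

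Among the 10 genes themselves, deviations from the group means over the 18 libraries ran together most for *Stat3* with *Stat5a* (r = 0.70), *Stat4* with *Stat6* (r = 0.69), *Stat5a* with *Stat5b* (r = 0.63), *Stat3* with *Stat5b* (r = 0.62) and *Socs2* with *Pim2* (r = 0.58). *Socs3* and *Pim1*, which rose together with ibrutinib, had r = -0.18 within groups, and *Stat3* had r = 0.03 with *Socs3* and 0.26 with *Pim1*. Libraries of the same experiment in different groups had correlated deviations from the group means, so these points are not independent.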

How the data were processed

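RNA-seq of 18 libraries was analysed. The authors trimmed the reads, aligned them to GRCm38 with STAR inside RSEM 1.3.1 and deposited a gene table per library. It holds expected counts, estimated per gene by the authors. The deposited TPM values are scaled by length and to the same total in each library by the authors, and the deposited length and effective length are in bases. The authors' own DESeq2 results were not used.

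Expected counts were rounded, and 27903 genes of the protein-coding and lncRNA classes (GENCODE M21) were kept, with 98.5% of all counts. R 4.3.3 with edgeR 4.0.16 was used: filterByExpr (12255 genes), TMM, glmQLFit (robust) and glmQLFTest in 1 fit of the 4 groups, with Benjamini-Hochberg adjustment. DESeq2 1.42.0 served as an alternative. TPM ratios and lengths were compared by exact permutation tests (scipy 1.17.1), and likeness used log2 CPM with a prior count of 2. The script was tested on simulated counts. Depth, 23445922 to 51995372 expected counts per library, put the least counted of the 10 genes, *Socs3*, at 374 expected counts or more.

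All 24 pairs of libraries of the same experiment in different groups had deviations from group means that correlated above 0.1 (0.16 to 0.494), so the experiments, which come from the genotype label, were taken to pair the libraries, and a fit with them as a block is an alternative. The others were the size factors and the Wald test of DESeq2, leaving out the low-count filter or the mean-count threshold, a log2 fold change beyond 1 in size, an effective-length offset, genes of all types, fits of the compared groups alone and each library left out.

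The 10 genes and all lists were chosen with earlier results of these data known. Named genes were the 10 in every comparison, *Stat2*, *Socs1* and the JAK genes, at most 3 called genes of the largest change with ibrutinib in repeat peptide cells per list, the 2 genes most like each of the 10, and *Btk*. Some genes of the lists are not reported here.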

Additional observations from a re-analysis of the deposited data

Results flagged for a closer look

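Among 40 combinations of the 10 genes and 4 groups, each checked for a culture far from the rest of its group, 1 stood out where chance gives about 1 in 20. It was *Stat3* in repeat peptide cells with ibrutinib: the culture of experiment E had 5858 normalized counts and the other 4 had 8019 to 8713. Experiment E has no library of another group to set beside it.

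Several genes of the pathway lists, none of them among the 10, answered ibrutinib differently in repeat and in single peptide cells by the interaction test of edgeR. The difference of the log2 fold changes was 2.34 for *Il6ra* (adjusted p = 0.00192), with 2.56 in repeat and 0.22 in single peptide cells. It was 1.79 for *Osm* (adjusted p = 0.00166), which was higher with ibrutinib in repeat (0.87) and lower in single peptide cells (-0.92). It was 0.96 for *Il4ra* and 0.89 for *Il27ra* (adjusted p = 0.00324 for both). For the perforin gene *Prf1* it was -1.91 (adjusted p = 0.0419), with -1.47 in repeat and 0.43 in single peptide cells. The call of *Prf1* was lost in 14 of 18 fits with a library left out (adjusted p up to 0.113), and kept without repeat peptide DMSO cultures A or B, repeat peptide ibrutinib culture C or single peptide DMSO culture F. It was also lost without the low-count filter (adjusted p = 0.108).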

How the results depend on the processing

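The calls of *Socs3*, *Pim1* and *Stat3* with ibrutinib in repeat peptide cells held with each library left out and in all other alternatives but the larger fold threshold. A threshold of 1 on the size of the log2 fold change left 1 of 3 called genes there (*Socs3*), 3 of 5 in repeat against single peptide cells with DMSO, 0 of 2 for ibrutinib in single peptide cells, 2 of 7 in repeat against single peptide cells with ibrutinib, and 2 of 4 for repeat peptide with ibrutinib against single peptide with DMSO. Over all tested genes it left 237 of 726, 1994 of 5765, 202 of 373, 1461 of 4703 and 1109 of 4028 calls, in the same order. For ibrutinib in single peptide cells a fit of those groups alone called 1 of the 10 genes, with 181 calls over all 11535 genes tested in it. Leaving out a library gave 0 to 2 of the 10 there. With the replicate block the interaction called 1 gene (*Socs3*) in place of 0, and the other calls it changed among the 10 genes, and its calls in the lists with ibrutinib in repeat peptide cells where these moved, are given beside the results. Of the 6 TPM ratio tests 3 passed, 5 without division by length, 0 to 4 with a library left out, where fewer splits by themselves raise the smallest p, and 0 by the block, whose sign-flip test over 4 pairs cannot pass, so that neither bears on stability. Small uncalled differences changed sign. The length offset gave -0.02 for *Socs2* in repeat against single peptide cells with DMSO, and -0.01 for *Stat4* in repeat peptide with ibrutinib against single peptide with DMSO. In that comparison the block gave -0.05 for *Stat4* and 0.03 for *Socs2*. With a library left out, the range was -0.22 to 0.01 for *Stat2* with ibrutinib in repeat peptide cells. In repeat against single peptide cells with DMSO it was -0.04 to 0.07 for *Stat5a* and -0.01 to 0.11 for *Socs2*. For repeat peptide with ibrutinib against single peptide with DMSO it was -0.02 to 0.06 for *Stat4*, -0.06 to 0.00 for *Stat6*, -0.08 to 0.05 for *Socs2* and -0.07 to 0.14 for *Pim2*. In the interaction it was -0.08 to 0.02 for *Stat4* and -0.09 to 0.00 for *Stat5b*. Where the construction of an alternative does not show it, the cause was not tested. Over all genes, ibrutinib in repeat peptide cells gave 726 calls and 237 to 1694 in the alternatives other than leaving out a library.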
